A study of Saccharomyces cerevisiae with 24 samples.

Results

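PolyA-selected and total RNA libraries made from the same RNA of pheromone-arrested budding yeast were compared for transcripts lower or higher after polyA selection. The study made the polyA libraries with the KAPA mRNA HyperPrep kit and the total libraries with the KAPA RNA HyperPrep kit. The selection thus cannot be told apart from other differences between the kits, and depleted below means lower in polyA libraries. The comparison used 12 of the 24 libraries of the series, namely the 6 polyA and the 6 total libraries of the G1 sample, joined into 6 pairs by the code (14 or 18) and the replicate number in the column names. The cells were Saccharomyces cerevisiae of the W303-1A background and mating type a. The control carried Ycg1-3PK, the condensin subunit Ycg1 with an epitope tag, and in Ycg1Degron1 the gene was driven by the methionine-repressible MET3 promoter, with Ycg1 fused to a degron and the plant F-box protein OsTIR1 expressed from the ADH1 promoter. Each strain gave 3 biological replicates, and both were treated alike. They were grown at 25°C in synthetic medium lacking methionine, held in G1 with the mating pheromone α-factor for 1.5 h, and moved to rich medium with auxin for 2 h before sampling. A second sample, called M, came from the same cultures after 2 h in nocodazole, which holds cells in mitosis. The labels do not say which code stands for which strain, so each G1 group below holds both strains, and the codes are named only as codes.

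Most eukaryotic mRNAs are cleaved downstream of the reading frame and receive a poly(A) tail, which binds the Pab1 protein and can be captured on oligo(dT) beads. Ribosomal RNA, spliceosomal RNA, small nucleolar RNA (snoRNA, the guides of ribosomal RNA modification and processing) and the RNA of the signal recognition particle end in other ways and carry no long tail when mature. The mRNAs of yeast mitochondria also lack poly(A) tails. A total library made without removal of ribosomal RNA keeps all of these, and a polyA library keeps what the beads held.

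Read depth differed strongly between the library types. The polyA libraries held 10282613 to 22171834 counts and the total libraries 15694561 to 21650537, but the genes with identifiers starting with Y, nearly all of them nuclear protein-coding genes, received 9698893 to 21662089 in polyA and 581331 to 853253 in total libraries. An mRNA was thus counted far more deeply in polyA libraries. The markers went with the arrest labels. AGA1, a pheromone-induced adhesin, had 3974 to 7182 counts per 1000000 Y-gene counts in the G1 polyA libraries and 65.3 to 150 in the M polyA libraries, and the mitotic cyclin gene CLB2 had 10.7 to 22.7 and 123 to 150. Of the α-cell genes, MF(ALPHA)1 and STE3 reached at most 0.333 and 2.21 in the G1 polyA libraries, whereas SAG1 was at 71.1 to 202.

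The makeup of the libraries differed in every RNA class tested. Nuclear ribosomal RNA made up 95.3% to 95.7% of the counts in the total libraries (mean 95.5% ± 0.153, SD, n = 6) and 2.24% to 7.78% in the polyA libraries (4.81% ± 2.04, SD, n = 6). The Y-gene share moved the other way, from 3.89% ± 0.149 (SD, n = 6) in total to 95.2% ± 2.04 (SD, n = 6) in polyA libraries, which is a 24.4-fold rise in share. SnoRNAs fell from a median of 0.175% to 0.00867%, spliceosomal RNAs from 0.0621% to 0.00314%, mitochondrial ribosomal RNA from 0.237% to 0.00268%, and the mitochondrially encoded protein genes from 0.0384% to 0.000816%. The ranges of the 2 library types did not overlap for any of these classes, and all 6 pairs moved the same way. In an exact paired sign-flip permutation test (two-sided, 10 classes) each class reached p = 0.03125, adjusted p = 0.03125, which is the smallest that 6 pairs allow.

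**Figure D1:**
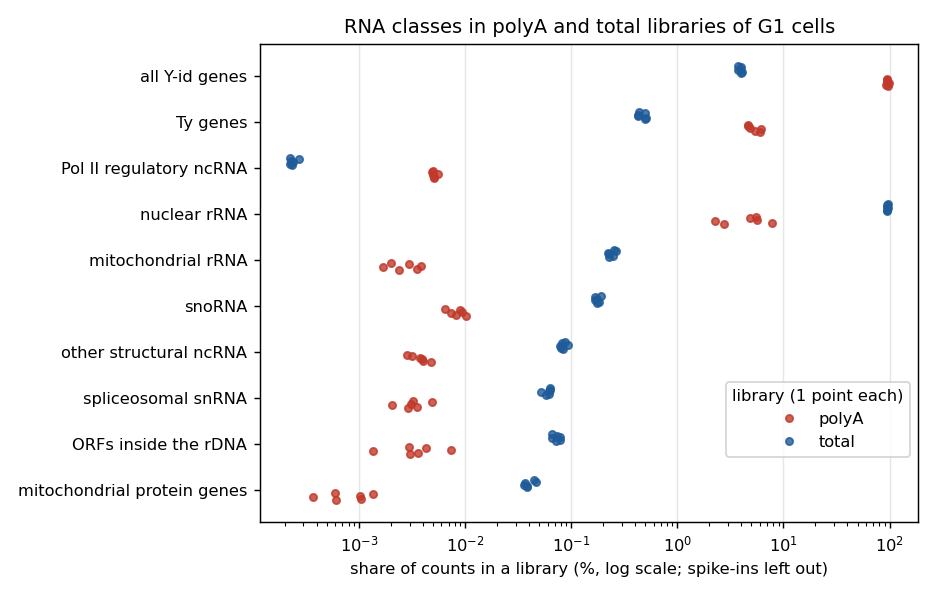
Share of the counts in each library taken by 10 RNA classes, on a log axis in percent with spike-ins left out, with 1 point for each of the 6 polyA and 6 total libraries of G1 cells. Nuclear ribosomal RNA sits between 95.3% and 95.7% in the total libraries and between 2.24% and 7.78% in the polyA libraries, and in no class do the 2 library types overlap.

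To compare transcripts apart from ribosomal RNA, counts were scaled on the Y genes, and normalised read counts below are counts per 1000000 of that scaled Y-gene total. A log2 difference is polyA minus total. A transcript was called at an adjusted p of at most 0.05 and a difference of at least 1.5-fold in edgeR's quasi-likelihood test with the RNA sample as a block. Of 5750 features with enough counts, 407 (7.08%) were called lower and 229 (3.98%) higher in polyA libraries, 11.1% in either direction. The libraries of the types did not overlap for 470 lower (8.17%) and 341 higher (5.93%) features. The direction of small differences rests on the scaling. When the plain Y-gene total replaced the scaling factors, the median of all features moved from 0.04 to 0.40 on the log2 scale, and 222 were called lower and 1447 higher, so that 86.7% of the calls were higher against 36.0%. Ty transposon genes and reading frames inside the ribosomal DNA, which were depleted, took 13.0% to 14.4% of the Y-gene counts in total and 4.89% to 6.28% in polyA libraries. Their part in the move of the median was not tested.

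Structural RNAs were among the most depleted transcripts. SCR1, the RNA of the signal recognition particle (chromosome V, 441987 to 442508, plus strand), had normalised read counts of 20230 to 24960 (median 21830) in total libraries and 0.886 to 5.95 (median 2.69) in polyA libraries. That was a log2 difference of -12.95 ± 0.40 (SE of 6 pairs; edgeR adjusted p = 5.4e-15), the lowest of the 4 structural RNAs that are neither spliceosomal nor snoRNAs. RPR1, the RNA of ribonuclease P, was at -10.83 and NME1, the RNA of ribonuclease MRP, at -10.24. TLC1, the RNA template of telomerase, which is known to exist partly in a polyadenylated form, kept much more of its signal. Its normalised read counts were 145 to 179 (median 162) in total and 22.5 to 39.6 (median 30.4) in polyA libraries, so that it was 5.37-fold lower (log2 difference -2.42 ± 0.14, SE of 6 pairs; edgeR adjusted p = 3.9e-11). All 4 of these RNAs were called lower, against 7.08% of all features. None of the 4 had overlapping libraries, and 8.17% of all features were lower without overlap.

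All 6 spliceosomal RNAs were called lower, against 7.08% of all features. LSR1, the U2 RNA that pairs with the branch site, was the most abundant and the least depleted, at 11520 to 13450 (median 12920) in total and 16.4 to 42.3 (median 26.8) in polyA libraries (log2 difference -8.88 ± 0.16, SE of 6 pairs; edgeR adjusted p = 9.6e-17). SNR19, the U1 RNA that pairs with the 5′ splice site, fell by 10.50. SNR14 (U4), SNR6 (U6) and the short and long forms of the U5 RNA, SNR7-S and SNR7-L, had between 0 and 3 counts in each polyA library, so that their fitted differences of -10.32 to -14.06 rest on almost no polyA reads. The median over the 6 was -10.79, against 0.04 over all features tested.

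Among the non-coding RNAs the snoRNAs had the most members tested. Of the 76 in the table, 55 passed the filter on counts, and each of these 55 was called lower, against 7.08% of all features. Their median log2 difference was -9.30. The filter sums both library types, and most of the 55 reached it through their total libraries. Without that filter 74 had a count, 68 of them were called lower and 0 higher, and the mean normalised read count was lower in polyA libraries for 73. SNR17A, the most abundant (U3, which directs early cleavage of pre-ribosomal RNA), had 10380 to 12030 in total and 0.601 to 3.25 in polyA libraries. SNR190 fell furthest, from 4303 to 5632 (median 5000) in total to 0.0805 to 1.11 (median 0.214) in polyA libraries (log2 difference -13.74 ± 0.69, SE of 6 pairs; edgeR adjusted p = 4.0e-16). SNR39 fell least, from 17.5 to 33.7 (median 28.0) to 0.135 to 0.765 (median 0.401), a log2 difference of -5.93 ± 0.29 (SE of 6 pairs; edgeR adjusted p = 6.8e-10) that rests on 98 counts in total and 40 in polyA libraries. Both belong to the box C/D family, and their whole sequences are shown from RefSeq (build R64) because they mark the ends of the range. Capitals mark the letters TGATGA of box C and the last CTGA, of box D. On the RNA strand 43 of the 76 snoRNAs (56.6%) held TGATGA, and 63 (82.9%) held CTGA.
snR190, chrX:139761-139950, minus strand: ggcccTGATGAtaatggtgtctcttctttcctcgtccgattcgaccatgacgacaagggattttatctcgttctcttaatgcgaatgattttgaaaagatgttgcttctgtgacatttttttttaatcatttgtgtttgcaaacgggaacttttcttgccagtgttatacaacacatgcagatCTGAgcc
snR39, chrVII:365163-365251, minus strand: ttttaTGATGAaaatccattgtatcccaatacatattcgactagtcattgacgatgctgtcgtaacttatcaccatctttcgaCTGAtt

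SNR39 lies inside the protein-coding gene RPL7A. The 5 tested snoRNAs inside a protein-coding gene on the same strand ranged from -9.78 (snR191 in NOG2) to -5.93, with a median of -6.69, and snR44 in RPS22B was at -6.02 and snR18 in EFB1 at -6.69. The 50 others ranged from -13.74 to -6.51, with a median of -9.41. Length moved with this as well, since the 17 tested snoRNAs shorter than 110 bases had a median of -8.05 and the 38 longer ones -9.61. The part of the host gene and of the length in the order of the snoRNAs was not tested.

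A reading frame can share the reads of such an RNA. YGL088W, an open reading frame on chromosome VII, had normalised read counts of 656 to 1218 in total and 0 to 0.201 in polyA libraries (log2 difference -13.78; edgeR adjusted p = 5.5e-17), lower than any other Y gene outside Ty elements. It was chosen after its values were seen. Of its 366 bases, 216 are the first bases of snR10, an H/ACA snoRNA encoded on the same strand, which itself fell by 9.14. The sequence of snR10 is shown because reads from the shared stretch, in capitals, fit both genes, so that the value of YGL088W cannot be told apart from that of snR10.
snR10, chrVII:345986-346230, plus strand: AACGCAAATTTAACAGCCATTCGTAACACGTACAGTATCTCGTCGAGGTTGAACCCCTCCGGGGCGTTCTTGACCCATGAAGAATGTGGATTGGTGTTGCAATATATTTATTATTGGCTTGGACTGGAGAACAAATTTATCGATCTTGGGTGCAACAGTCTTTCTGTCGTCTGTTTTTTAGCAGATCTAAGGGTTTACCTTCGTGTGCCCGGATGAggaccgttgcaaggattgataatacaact

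Mitochondrial transcripts were depleted to the same order as the structural RNAs. The mitochondrial ribosomal RNA 21S_RRNA had 40610 to 45980 in total and 10.8 to 26.3 in polyA libraries (log2 difference -11.27 ± 0.21, SE of 6 pairs; edgeR adjusted p = 3.0e-16), and 15S_RRNA fell by 11.86. Of the 28 mitochondrial protein genes listed, 16 passed the filter, and each was called lower, against 7.08% of all features (median log2 difference -10.62, or -10.16 with 1 gene without polyA counts set at a floor of 3 counts). Without the filter 21 of the 23 with a count were called lower. COB, which encodes cytochrome b, had 781 to 956 (median 858) in total and 0 to 0.743 (median 0) in polyA libraries, a log2 difference of -12.81 (edgeR adjusted p = 9.9e-16). COX2 and COX3, subunits of cytochrome c oxidase, were at -12.65 and -12.46, and OLI1, a subunit of the ATP synthase ring, at -12.05. COX1 and the reading frames of its introns ranged more widely, from -11.41 for AI2 to -6.29 for AI5_BETA, which had 28.4 to 44.2 in total and 0.121 to 0.931 in polyA libraries. These genes overlap on 1 strand, and RSEM divides their shared reads.

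Reading frames inside the ribosomal DNA followed the ribosomal RNA. TAR1, a gene on chromosome XII (454696 to 455070, plus strand) that lies opposite the 25S ribosomal RNA, had 11970 to 14770 in total and 9.14 to 45.3 in polyA libraries (log2 difference -9.29 ± 0.28, SE of 6 pairs; edgeR adjusted p = 1.8e-14), the lowest of the genes that the rule named as having fallen most. All 5 tested reading frames of this kind, of 10 in the table, were called lower (median -9.36), against 7.08% of all features. The count of TAR1 was 0.0426% to 0.0533% of the nuclear ribosomal RNA count in total libraries and 0.0318% to 0.0843% in polyA libraries, so that the ratio overlapped while the level did not. The summed nuclear ribosomal RNA itself was 676-fold lower after scaling (log2 -9.40 ± 0.77, SD, n = 6). Its single features cannot be read alone, because RSEM divided the reads of the overlapping precursor and mature forms differently in the library types, with RDN37-1 at 7381000 to 8548000 in total and at most 2.16 in polyA libraries and RDN58-1 at 0 in every total library.

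The non-coding RNAs made by RNA polymerase II as long transcripts stayed near the mRNAs. Together the 10 in the table rose 21.5-fold in share of counts and were 1.45-fold lower after scaling (log2 -0.54 ± 0.18, SD, n = 6). ICR1, which is transcribed across the FLO11 promoter, had 18.7 to 38.4 (median 27.9) in total and 12.2 to 18.4 (median 17.0) in polyA libraries and was called lower (log2 difference -0.77 ± 0.23, SE of 6 pairs; edgeR adjusted p = 0.012). SRG1, whose transcription represses SER3, was at -0.53 ± 0.19, RUF5-1 and RUF5-2 were each at -0.04 ± 0.33, and RUF20 was at 0.10, and these 4 were not called. RUF5-1 and RUF5-2 had the same value in every pair and stand for 1 measurement, with 1 to 5 counts in a total library. RUF20 had 0 to 2 there. SRG1 was lower in 6 of 6 pairs (edgeR adjusted p = 0.0416) but by less than 1.5-fold, and ICR1 was no longer called with the plain Y-gene total (-0.41). The whole class had 35 to 51 counts in a total library. Nuclear tRNA genes had 10 to 35 counts in a total and 0 to 2 in a polyA library, and none of the 275 passed the filter on counts. Without it 27 of the 35 with a count were called lower and 0 higher, against 465 and 249 of all 6729 features.

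**Figure D2:**
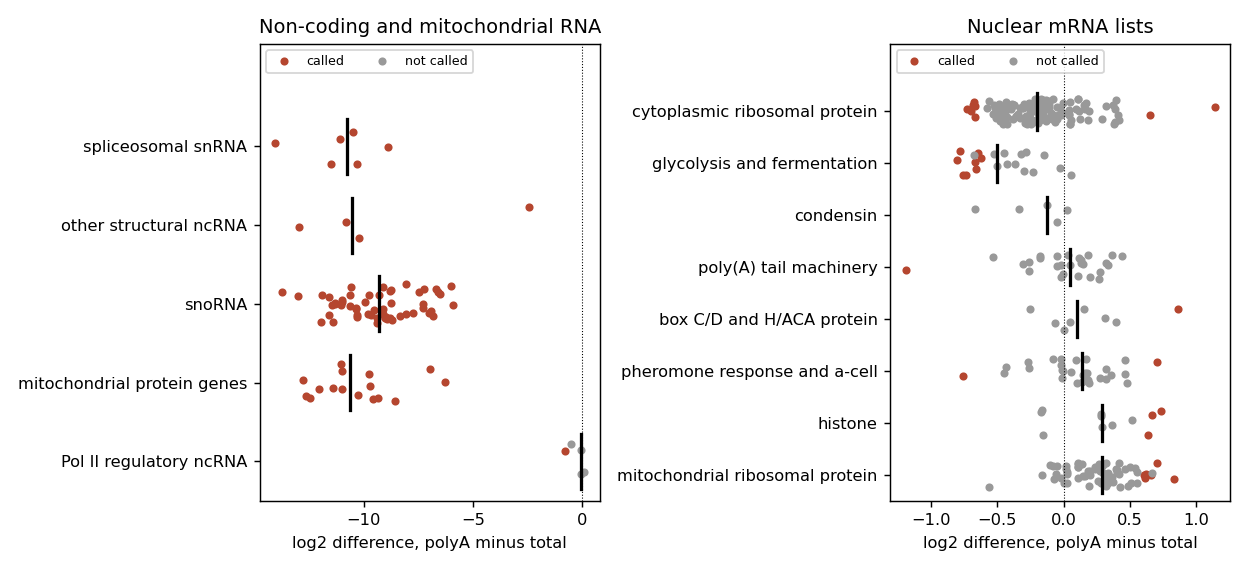
Log2 difference, polyA minus total, of every tested member of 5 lists of non-coding or mitochondrial RNA (left) and 8 lists of nuclear mRNAs (right), in 6 pairs of G1 libraries, with 1 point per transcript, a black bar at the list median, and different scales in the 2 panels. The median of the snoRNAs is -9.30, and the medians of the mRNA lists lie between -0.50 and 0.29.

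Transposon transcripts were depleted moderately. Ty elements are retrotransposons whose Gag and Gag-Pol frames are read from 1 long RNA, and RSEM divides reads among their near-identical copies, so that sums over families are given. The 61 Ty1 genes together had 75110 to 87210 (median 81410) in total and 30070 to 35750 (median 32350) in polyA libraries (log2 -1.32 ± 0.13, SD, n = 6). The 20 Ty2 genes were 3.04-fold lower (log2 -1.60 ± 0.28, SD, n = 6) and the 5 Ty4 genes 1.55-fold lower (log2 -0.63 ± 0.25, SD, n = 6). Of single Ty genes, 54 of the 74 tested were called lower and 5 higher, against 7.08% and 3.98% of all features. All 6 pairs fell for each family, and the libraries overlapped for Ty4 alone among the 3 (exact paired sign-flip permutation test over 7 sums, p = 0.03125, adjusted p = 0.03125, the smallest possible). The 3 Ty3 genes cannot be read so simply. YIL082W-A had 7604 to 12080 in total and 0 in every polyA library, whereas YGR109W-B, the other Ty3 Gag-Pol gene, had 2353 to 4265 and 1171 to 2436 and was 1.94-fold lower (log2 -0.95 ± 0.09, SD, n = 6). YIL080W, which the reference annotation used here does not list, was at 20600 to 33850 in total and 10340 to 20660 in polyA libraries (log2 -0.76 ± 0.17, SD, n = 6), which overlap, and the division of reads between copies was not tested. The 16 genes of the subtelomeric Y′ elements were 1.36-fold lower in sum (log2 -0.45 ± 0.11, SD, n = 6). On the same scale the sum of all Y genes was itself at -0.35. As shares of the Y-gene counts, the Y′ genes took 0.129% to 0.210% in polyA and 0.141% to 0.230% in total libraries, which overlap. The Ty4 shares, 0.00912% to 0.0192% in polyA and 0.0110% to 0.0247% in total libraries, overlapped as well.

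Among single-copy nuclear genes, the transcripts that fell most in polyA libraries included several with reading frames over 5000 bases. FAS1, the beta subunit of fatty acid synthase, had 2364 to 3826 (median 2954) in total and 798 to 1061 (median 896) in polyA libraries, 3.39-fold lower (log2 difference -1.76 ± 0.09, SE of 6 pairs; edgeR adjusted p = 7.4e-11). ACC1, acetyl-CoA carboxylase, was at -1.47, URA2, which starts pyrimidine synthesis, at -1.61, and GLT1, glutamate synthase, at -1.71. TRA1, a subunit of the SAGA and NuA4 histone acetyltransferases with a reading frame of 11235 bases, fell by 1.71. CHC1, the clathrin heavy chain, whose reading frame of 4962 bases is just under 5000, fell by 1.51. These genes did not overlap between the library types. The rule took only genes that fell in 6 of 6 pairs.

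Shorter genes stood among them too. SRO9, an RNA-binding protein with a reading frame of 1305 bases, had 464 to 683 (median 528) in total and 109 to 164 (median 132) in polyA libraries, 4.06-fold lower with little spread (log2 difference -2.02 ± 0.06, SE of 6 pairs; edgeR adjusted p = 3.9e-13). SAM1, an S-adenosylmethionine synthetase, had 61.5 to 125 (median 103) in total and 10.4 to 43.0 (median 24.7) in polyA libraries (log2 difference -2.07 ± 0.32, SE of 6 pairs; edgeR adjusted p = 2.1e-06). MET6, methionine synthase, was at 85.9 to 571 in total and 23.8 to 197 in polyA libraries, which overlap. It fell in 6 of 6 pairs, as the rule required (log2 difference -1.84 ± 0.18, SE of 6 pairs; edgeR adjusted p = 4.0e-09). CPS1, the vacuolar carboxypeptidase, fell by 1.45. The list of 12 that the rule named also held TAR1 and the Y′ helicase gene YRF1-2, whose reads are shared among copies.

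The transcripts that rose most were short and rich in A. FYV7, required for ribosomal RNA processing, had 29.8 to 51.2 (median 40.9) in total and 74.1 to 107 (median 98.5) in polyA libraries, 2.37-fold higher (log2 difference 1.24 ± 0.17, SE of 6 pairs; edgeR adjusted p = 1.25e-06). SEM1, a small subunit of the proteasome lid, rose by 1.11, EAF7, a NuA4 subunit, by 1.04, and LSO2, a ribosome-associated protein, by 1.02. Several others act in ribosome assembly in the nucleolus, namely EFG1 (0.98), CGR1 (0.98), EBP2 (0.95) and PXR1 (0.94). RRT14 (0.96), BUG1, a protein of the cis-Golgi (0.95), QCR6, a subunit of respiratory complex III (0.95), and URM1, a ubiquitin-like modifier (0.94), completed the 12. The rule took only genes that were higher in 6 of 6 pairs. None of the 12 overlapped between the library types.

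The reading frames of these 12 ran from 270 to 1284 bases (median 538), with 34.0% to 46.3% A on the coding strand (median 42.7%). The 11 named genes that fell most, TAR1 left out, ran from 1149 to 11235 bases (median 5046), with 27.1% to 34.1% A (median 29.9%). To show what an A-rich reading frame looks like, the 60-base coding window with the most A (from RefSeq, build R64) is given for the 4 that rose most and the 4 that fell most among single-copy genes, with every A in capitals. The windows of FYV7, SEM1, EAF7 and LSO2 held 37, 37, 38 and 37 A, and those of SAM1, SRO9, MET6 and FAS1 held 27, 34, 30 and 31. The median of the richest window over 5454 coding genes was 30, and longer reading frames offer more windows to choose from.
FYV7, chrXII:271220-271279, plus strand: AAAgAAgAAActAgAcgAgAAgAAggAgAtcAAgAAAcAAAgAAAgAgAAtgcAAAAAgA
SEM1, chrIV:1202148-1202207, plus strand: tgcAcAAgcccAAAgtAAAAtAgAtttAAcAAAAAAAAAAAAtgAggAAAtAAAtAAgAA
EAF7, chrXIV:371139-371198, plus strand: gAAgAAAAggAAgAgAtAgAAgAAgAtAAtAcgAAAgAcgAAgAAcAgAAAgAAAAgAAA
LSO2, chrVII:836465-836524, minus strand: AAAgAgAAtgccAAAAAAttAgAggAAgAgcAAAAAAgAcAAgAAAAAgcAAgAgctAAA
SAM1, chrXII:515431-515490, plus strand: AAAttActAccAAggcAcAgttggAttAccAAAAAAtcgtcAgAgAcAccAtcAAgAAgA
SRO9, chrIII:58248-58307, minus strand: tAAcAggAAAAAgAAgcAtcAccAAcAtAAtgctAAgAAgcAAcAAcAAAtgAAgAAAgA
MET6, chrV:340706-340765, minus strand: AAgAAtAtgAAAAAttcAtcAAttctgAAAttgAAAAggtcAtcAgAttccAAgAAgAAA
FAS1, chrXI:100988-101047, plus strand: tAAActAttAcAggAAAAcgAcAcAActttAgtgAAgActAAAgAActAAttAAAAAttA

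**Figure D3:**
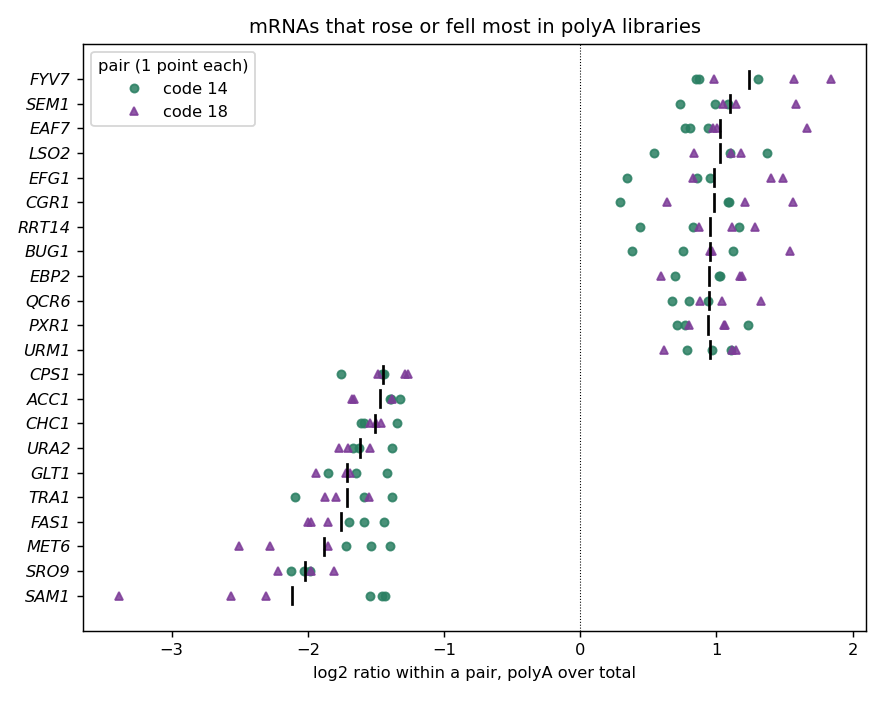
Log2 ratio of polyA over total within each of 6 pairs for the 12 mRNAs that rose most and the 10 that fell most, leaving out TAR1 and YRF1-2, whose reads are shared, with points for code 14 and code 18 pairs and a bar at the mean. All points of the upper 12 genes lie above 0 and all points of the lower 10 below it, as the rule that picked them required. The SAM1 points of the codes lie apart.

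Both features ran through all coding genes. Over 5454 nuclear coding genes outside Ty elements and the ribosomal DNA, Spearman's rho with the log2 difference was -0.39 for coding length and 0.46 for the share of A, as a description across genes that share the same 12 libraries. For the mean normalised count rho was -0.25 and for the share of G and C -0.19. The parts of abundance and of the kits in these trends were not tested. The shortest quintile of genes (78 to 666 bases) had a median log2 difference of 0.20 and the longest (2139 to 14730 bases) -0.19. In the shortest quintile 112 genes (10.3%) were called higher and 18 (1.65%) lower. In the longest 1 (0.0917%) was called higher and 160 (14.7%) lower. Of all features, 3.98% were called higher and 7.08% lower, a balance that rests on the scaling described above. Of the 77 genes over 5000 bases 63 were called lower and 0 higher, with a median of -0.90. The quintile poorest in A (17.4% to 29.5%) had a median of -0.16, with 7 genes (0.642%) called higher and 91 (8.34%) lower. The quintile richest in A (35.5% to 47.4%) had a median of 0.31, with 149 (13.7%) called higher and 10 (0.917%) lower. Within the quintiles of length, rho with the share of A lay between 0.455 and 0.653, and within the quintiles of A content, rho with length lay between -0.583 and -0.351. For the most A in any 60 bases rho was 0.16. Longer genes offer more windows, and this value was not taken within quintiles of length, so it cannot be set against that of the share of A. The trends with length and the share of A were also seen in the M libraries, where rho was -0.39 for length and 0.43 for the share of A over 5424 genes.

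**Figure D4:**
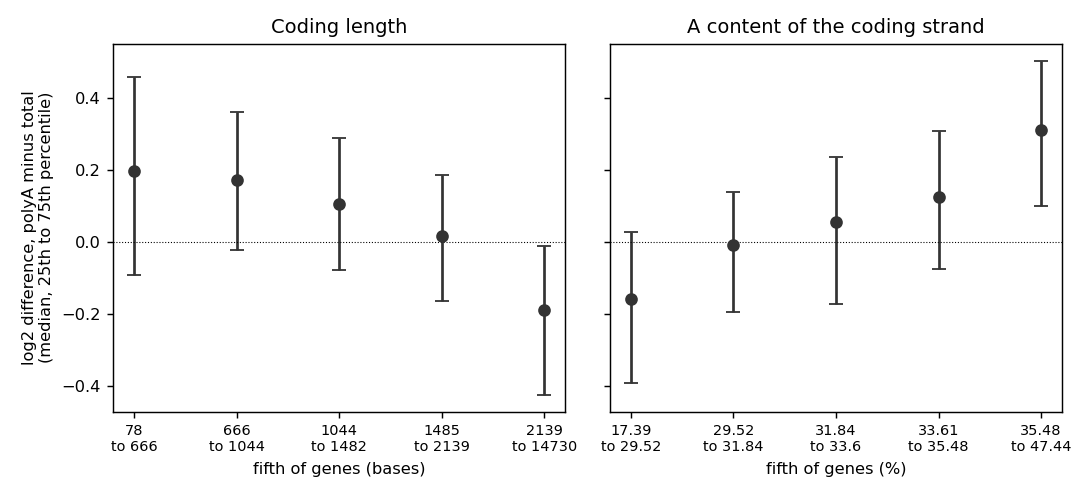
Log2 difference, polyA minus total, in quintiles of 5454 nuclear coding genes by coding length in bases (left) and by the share of A on the coding strand in percent (right), with points at medians and bars from the 25th to the 75th percentile of genes. The median goes from 0.20 in the shortest to -0.19 in the longest quintile, and from -0.16 in the quintile poorest in A to 0.31 in the richest.

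Functional groups of mRNAs differed by small amounts. Of the 21 genes of glycolysis and fermentation, 8 were called lower (7.08% of all features were) and 0 higher, with a median log2 difference of -0.50. With the plain Y-gene total 0 of the 21 were called in either direction, against 1669 of all 5750 features. The median was then -0.15, against 0.40 over all features. PDC1, pyruvate decarboxylase, was the most abundant, at 17360 to 22870 (median 21800) in total and 10420 to 13370 (median 12630) in polyA libraries (log2 difference -0.78 ± 0.12, SE of 6 pairs; edgeR adjusted p = 4.0e-05). PFK2, a subunit of phosphofructokinase, fell by 0.80, and GPM1, phosphoglycerate mutase, was at 0.06 ± 0.07 and was not called. Of the 137 cytoplasmic ribosomal protein genes, 6 were called lower and 2 higher, against 7.08% and 3.98% of all features, with a median of -0.20. Under the plain Y-gene total 0 were called lower and 11 higher, against 222 and 1447 of all 5750 features. Their median was then 0.16, against 0.40 over all features. RPL41A, with a reading frame of 78 bases, rose by 1.14 ± 0.37 (SE of 6 pairs; edgeR adjusted p = 0.0022) on 3.16 to 24.4 in total and 16.5 to 47.1 in polyA libraries, which overlap. Many of these genes exist as near-identical pairs, for which RSEM divides reads.

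Groups on the higher side included the mitochondrial ribosomal proteins, encoded in the nucleus, of whose 67 genes 6 were called higher (3.98% of all features were) and 0 lower, with a median of 0.29. MRPS17, the member that rose most, had 20.6 to 43.7 in total and 44.5 to 70.2 in polyA libraries (log2 difference 0.84 ± 0.16, SE of 6 pairs; edgeR adjusted p = 0.00037). MRP8 was at 0.29 and MRPS12 at -0.56, and neither was called. Of the 11 histone genes 3 were called higher and 0 lower, with the same median of 0.29. With the plain Y-gene total 41 of the mitochondrial ribosomal protein genes and 7 of the histone genes were called higher, against 1447 of all 5750 features. CSE4, the centromeric histone H3 variant, had 9.04 to 18.96 in total and 21.3 to 29.4 in polyA libraries (log2 difference 0.74 ± 0.16, SE of 6 pairs; edgeR adjusted p = 0.0074), and the H4 genes HHF2 and HHF1 rose by 0.67 and 0.64. The library types overlapped for both H4 genes, and HHF1 (edgeR adjusted p = 0.036) rested on 4 to 10 counts in a total library. HHT1, HHT2, HTB1, HTB2 and HTA2 were between 0.28 and 0.52, and HTA1, HHO1 and HTZ1 were between -0.17 and -0.16, and none of these was called. NOP10, a small H/ACA particle protein, rose by 0.86 as the only one called of 8 snoRNA-binding protein genes.

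The machinery that makes, binds and removes poly(A) tails had a median log2 difference of 0.05, against 0.04 over all features tested. Of its 27 genes 1 was called lower and 0 higher, against 7.08% and 3.98% of all features. The plain Y-gene total gave 1 and 6, against 222 and 1447 of all 5750 features. The gene called lower was CDC39, the scaffold of the Ccr4-Not deadenylase with a reading frame of 6327 bases, at 655 to 724 in total and 257 to 326 in polyA libraries (log2 difference -1.19 ± 0.05, SE of 6 pairs; edgeR adjusted p = 4.1e-10). PAB1 was at -0.30 ± 0.03 and NOT5 at 0.44 ± 0.14. None of the 5 condensin genes was called. Their median was -0.12, against 0.04 over all features, and 0.23 with the plain Y-gene total, against 0.40. SMC4 was at -0.12, BRN1 at -0.34, YCS4 at -0.05 and SMC2 at 0.02. Of other widely used genes, ACT1 (actin) had 3244 to 3809 in total and 2228 to 2713 in polyA libraries, a log2 difference of -0.51 ± 0.07 (SE of 6 pairs; edgeR adjusted p = 9.5e-05) that stayed under 1.5-fold, and UBC6, a ubiquitin-conjugating enzyme, rose by 0.64 ± 0.10 (SE of 6 pairs; edgeR adjusted p = 7.7e-05).

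Genes of the pheromone response, the pathway that the arrest acts through, were near the middle in G1. Of 29 such genes MFA1, a precursor of a-factor with a reading frame of 111 bases, was called higher (0.70 ± 0.18) and FIG2, an adhesin, lower (-0.76 ± 0.10), against 3.98% and 7.08% of all features, and the median was 0.14. With the plain Y-gene total 8 were called higher and 0 lower, against 1447 and 222 of all 5750 features. MFA2 was at 0.19, and CLB2, which is hardly expressed in this arrest, at -0.28, and neither was called. The question whether the polyA against total difference depended on the arrest was asked with all 24 libraries in an edgeR fit of the interaction with a block for each of the 12 RNA samples. Of 5748 features, 16 (0.278%) had a higher and 6 (0.104%) a lower difference in G1 than in M, 0.383% in all.

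Of those 16, 9 were among the 29 pheromone genes. AGA1 had 4183 to 6519 counts per 1000000 Y-gene counts in total and 3974 to 7182 in polyA libraries of G1 cells, and 156 to 358 and 65.3 to 150 in those of M cells. Its log2 difference was -0.26 in G1 and -1.51 in M (edgeR interaction 1.23, adjusted p = 1.8e-07). FIG1, a membrane protein of mating cells, went from 0.32 in G1 to -1.84 in M (edgeR interaction 2.18, adjusted p = 0.0001), with 2 to 24 raw counts in an M total library. PRM1, which acts in membrane fusion, gave an interaction of 1.37, FUS1 1.43, FUS2 1.17, FIG2 1.22, PRM3 1.99, ASG7 1.31 and AGA2 1.01. IME4, an mRNA methyltransferase gene, gave 1.92. PRM3 had 0 to 6 raw counts in an M total library, ASG7 1 to 13 and AGA2 5 to 11. For FUS1 the range was 5 to 18, for IME4 3 to 17, for FUS2 9 to 25 and for PRM1 9 to 36. Scaled to Y-gene counts, the M library types overlapped for each of the 9 pheromone genes but AGA1. In these bulk samples, fewer cells of a kind and less RNA per cell cannot be told apart, nor can the arrest and the later time of the M sample.

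In the other direction, SAM1 went from -2.07 in G1 to -0.46 in M (edgeR interaction -1.61, adjusted p = 0.0022), MET6 from -1.84 to -1.01 and TLC1 from -2.42 to -1.71. The other 3 were YCL020W, YFL064C and YML133C, which are named by identifier only. YGR109W-B and YIL080W were both more depleted in M, at -1.80 and -1.72. Without the RNA sample block 1 feature was called in place of 22. For depleted transcripts the calls were largely shared between arrests, as 314 were called lower in both, which is 77.2% of the 407 in G1 and 82.2% of the 382 in M (6.67% of 5730 features there, and 8.57% in either direction). Of those called higher, 59 were shared, 25.8% of the 229 in G1 and 54.1% of the 109 in M (1.9%). A call in 1 arrest alone does not show a difference between arrests, which the interaction found for 22 of 5748 features.

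**Figure D5:**
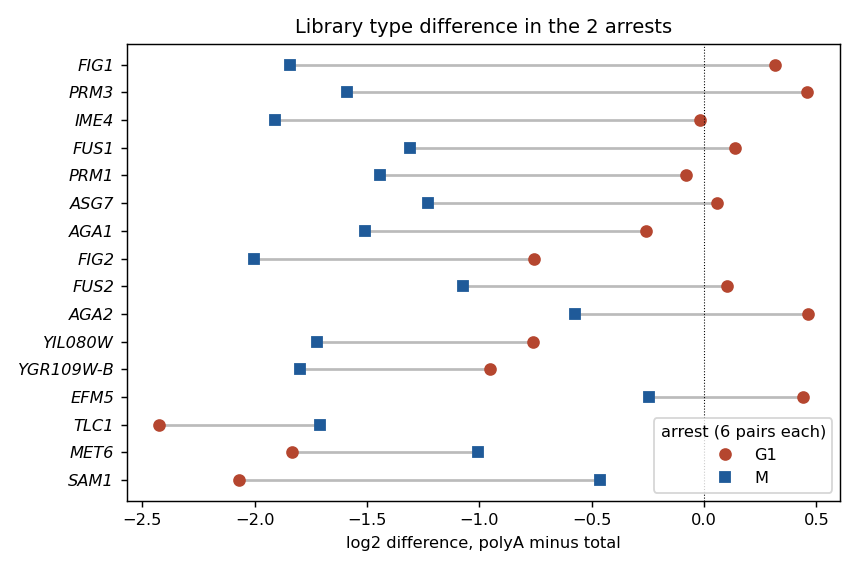
Log2 difference, polyA minus total, in G1 (circles) and in M (squares), each from 6 pairs, for 16 of the 22 features with an interaction of library type and arrest, ordered by the interaction. FIG1 lies at 0.32 in G1 and -1.84 in M, and SAM1 at -2.07 and -0.46.

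Few features differed between the codes in the column names. Of 5750 features 2 (0.0348%) were called in the edgeR interaction of library type and code. YCG1, the condensin gene modified in both strains, had normalised read counts of 84.2, 41.9 and 47.8 in the total and 18.1, 14.9 and 13.4 in the polyA libraries of code 14, in the order of the replicate numbers. In code 18 they were 102.6, 69.3 and 88.0 in the total and 94.3, 78.9 and 91.3 in the polyA libraries. The polyA libraries of code 14 lay below all others, and the total libraries of the codes overlapped. The log2 difference was -1.87 for code 14 and 0.00 for code 18 (edgeR interaction 1.91, adjusted p = 0.0013), and over both codes YCG1 was at -0.67 ± 0.43 (SE of 6 pairs) and was not called. The other was YGR038C-A, a Ty gene with counts in few libraries. SAM1, at -1.48 in code 14 and -2.81 in code 18, was not called (edgeR adjusted p = 0.379). Without the RNA sample block, edgeR called 0 features, with 348 at an unadjusted p under 0.05.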

How the data were processed

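Reads of 76 bp, single-end and strand-specific, were trimmed by the authors with cutadapt 1.9.1, aligned with STAR 2.5.2a to the Ensembl R64-1-1 assembly with ERCC sequences appended, and counted per gene with RSEM 1.3.0. The deposited table holds these expected counts for 7218 features, 92 of them ERCC sequences. The 24 columns of TPM were not used. The codes 14 and 18 in the column names are not in the sample labels, so columns were assigned by arrest and library type alone.

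Expected counts were rounded, ERCC features were left out, and features with at least 120 counts over the 12 G1 libraries (240 over 24) were fitted with edgeR 4.0.16 in R 4.3.3, using TMM factors from Y genes, a block for each RNA sample and Benjamini-Hochberg adjustment. The study halved each RNA sample for the library types, and the deviations of paired libraries correlated at 0.24 to 0.504 over all pairs and at -0.022 to 0.309 within a code. Of the 6, 5 correlated best with their own partner, and code 18 replicate 1 with replicate 3. Alternatives included DESeq2 1.42.0. Scripts were tested on simulated data. Of 6685 Y genes, 6006 matched RefSeq, whose gene models are coding sequences (5451 of 5454 lengths are multiples of 3). No pair of libraries differed by less than sampling noise.

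Genes were named by rule: the 12 called Y genes with a symbol that fell and the 12 that rose most, in all 6 pairs and with a mean count of at least 100 at a common library size, the extreme and most abundant member of each list, all members of 6 short lists, the 5 smallest p of each interaction, and 8 marker or reference genes. One gene so picked is not reported here. The members and lists were chosen with earlier results of these data known. Floors cover counting error only, and the ± values are the SE or SD over pairs or libraries, as given. With libraries paired by RNA sample, p-values measure how the polyA minus total difference varied between pairs. They do not measure how levels varied between biological replicates.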

Additional observations from a re-analysis of the deposited data

Results flagged for a closer look

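Among 104 sets of 6 paired log2 ratios, 2 had a pair far from the other 5, where chance alone gives about 1 in 20. EAF7 was at 1.67 in the code 18 replicate 3 pair against a median of 0.94 in the others, and FUS1 at -0.11 in the code 14 replicate 1 pair against 0.20.

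The log2 difference, polyA minus total, was higher (less negative or more positive) in G1 than in M by the edgeR interaction for AGA1 (1.23), YGR109W-B (0.83), PRM1 (1.37), YIL080W (0.94) and FIG1 (2.18). Between the codes it differed for YCG1 (1.91) and for YGR038C-A (16.60), whose counts were at or near 0 in most libraries.

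ERCC spike-in sequences, which no comparison used, took a median of 0.041% of the counts in polyA and 0.00183% in total libraries. In all 57 of the 92 had a count in polyA and 38 in total libraries. The sources used here do not say whether they were added to these samples.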

How the results depend on the processing

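The count of transcripts called in G1, 636, stayed between 544 and 714 with DESeq2 size factors, DESeq2's Wald test, TMM factors that included ribosomal RNA, and both other filters, and was 500 and 638 with code 14 or code 18 alone. It was 1669 (1447 higher, 222 lower) with the plain Y-gene total, and 253 (36 higher, 217 lower) at 2-fold. Code 14 pairs alone gave 148 called higher. Leaving out 1 pair gave 569 to 683 calls, 183 to 243 higher and 386 to 440 lower. The pairing mattered little for this count, with 583 calls without the replicate block, but the interactions of library type with arrest and with code went from 22 to 1 and from 2 to 0 calls without it. In shares taken without nuclear ribosomal RNA, the Ty genes turned from a positive log2 ratio to -0.90, since the denominator then holds mainly mRNA, and the RNA polymerase II non-coding RNAs went to 0.019 (exact p = 0.719). YGR038C-A, log2 difference -0.86 and not called, was called at 5.42 with code 18 alone and ranged from -3.759 to 5.392 when 1 pair was left out, the highest without the code 14 replicate 2 pair. Of the 113 genes the rule named, 88 kept their call in all alternatives. Total libraries with 581331 to 853253 Y-gene counts limit what can be seen for mRNAs of low abundance.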
